A study of Mus musculus with 8 samples.

Results

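The 10 genes described here mark the endothelium or belong to the pathway of vascular endothelial growth factor (VEGF): Vegfa, Flt1, Kdr, Tek, Cdh5, Pecam1, Emcn, Plvap, Ehd3 and Nos3. They were chosen by name, as 10 of the 18217 genes that the array measures under a gene symbol. Their values came from 1-colour Agilent arrays of whole-kidney RNA, with 1 array for each of 8 mice aged 8 weeks, of which 4 were NEKO mice and 4 were controls. NEKO mice were Keap1-/-::Nrf2Flox/Flox::K5-Cre, and controls were Keap1+/-::Nrf2Flox/Flox, of which 3 carried K5-Cre (K1Cre) and 1 female did not (K1). All 8 mice were therefore homozygous for the floxed Nrf2 allele, every control was a Keap1 heterozygote rather than a wild type, and the background was a mixture of 129Sv/J and C57BL/6J. K5-Cre acts in squamous epithelium, so NEKO mice lack Keap1 in all kidney cells, endothelial cells included, while their loss of Nrf2 is limited to cells with K5-Cre. Each group held 2 females and 2 males, and the labels do not say which mice shared a litter.

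VEGF-A is released in the kidney by podocytes and tubular cells and acts on receptors of the neighbouring endothelium, where it maintains capillaries and their fenestrae. KDR (VEGF receptor 2) is the main signalling receptor, and FLT1 (VEGF receptor 1) binds the ligand tightly and, in its soluble form, holds it away from KDR. Kidney vessels differ by site, from the glomerular capillaries to the peritubular capillaries and the vasa recta, and the genes here mark different parts of this bed. Keap1 holds Nrf2 at a low level, and without Keap1 the transcription factor Nrf2 accumulates. The comparison asks whether transcripts of endothelial and VEGF pathway genes differ in a kidney in this state.

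None of the 10 genes differed between NEKO and control kidneys at an adjusted p under 0.05 (limma, with sex as a term, and p adjusted by Benjamini-Hochberg across the 19593 named genes and unnamed transcripts in the fit), against 0.225% of all that was tested. With each gene read from its brightest probe, there was 1 of 10 at an unadjusted p under 0.05, Flt1, against 18.0% of all tested. A second, dimmer probe of Cdh5, given below, also had an unadjusted p under 0.05. The unpaired comparison with unequal variances that the methods name gave 0 of 10, adjusted or not. Read from its brightest probe, no member had NEKO and control values that did not overlap, against 9.28% of all tested (3.89% higher and 5.39% lower in NEKO mice). The differences ran from -0.03 to 0.25 on the log2 scale, and their median was 0.12, beside -0.03 over all that was tested. Every 95% confidence interval lay between a 0.824-fold and a 1.47-fold level, so a change of 1.5-fold or more in any of the 10 genes, read from its brightest probe, lay outside the interval. All 15 probes of these genes were well above background on all 8 arrays. RNA came from the whole organ, so fewer endothelial cells and less RNA per cell cannot be told apart.

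The labels were checked against Keap1 and a Nrf2 target. Keap1 was between 1.77 and 1.92 in the controls and between 0.06 and 0.45 in NEKO mice, and it fell by 1.63 (SE 0.10, limma adjusted p = 0.00459). Nqo1, a classical Nrf2 target that encodes a quinone reductase, was between 1.24 and 2.46 in controls and between 3.89 and 5.45 in NEKO mice, with an adjusted p of 0.0650 in limma. Of 9 tested Nrf2 target genes, 8 were higher in NEKO mice, and the median of the list was 1.05. An unadjusted p under 0.05 in limma was reached by 7, all higher, against 18.0% of all tested in either direction. An adjusted p under 0.05 was reached by 2, against 0.097% of all tested that were higher. These were the glutathione peroxidase Gpx2, up by 5.40, and the thioredoxin reductase Txnrd1, up by 1.30. The endothelial markers Eng and Egfl7 were measured in every kidney, at 1.07 to 1.50 and at 2.46 to 3.03. Levels here and below are log2 processed signal from which the array's own 75th percentile was subtracted, so they compare mice for 1 probe and not 1 gene with another. The share of probes well above background ran from 61.8% to 65.7% over the arrays, and no spot was saturated. All females lay on 1 slide and all males on the other, with 2 NEKO and 2 control mice on each, so a sex effect and a slide effect cannot be told apart.

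Promoter sequence was read from RefSeq (GRCm38.p6) for the 250 bases before the transcription start, which was given for 6 of the 10 members in 7 windows. The antioxidant response element, to which Nrf2 binds, was searched on both strands as TGACNNNGC, and was found in the window of 1 member, Kdr, against 10.2% of 32851 windows of the same length. The core of the hypoxia response element, ACGTG, was in 1 of the 6, Vegfa, against 16.6%. It lay only in the window of a Vegfa start further downstream (chr17:46025164-46025413). Seen from the upstream start, that window is sequence inside the gene, not before it. The 250 bases before the upstream Vegfa start (chr17:46032378-46032627) held 0 matches. Sequence further upstream was not read, so the search says nothing about it. GGAAG, the core to which ETS factors of endothelial cells bind, was in 4 of the 6 against 64.1%. A match describes the letters only. The first window is shown because Kdr alone held the antioxidant letters (in capitals, starting 50 bases before the transcript start), on the minus strand at chr5:75978456-75978705. The second is shown because Flt1 had the lowest p of the 10 when each was read from its brightest probe. Its 3 runs of GGAAG are in capitals, on the minus strand at chr5:147726012-147726261.
Kdr: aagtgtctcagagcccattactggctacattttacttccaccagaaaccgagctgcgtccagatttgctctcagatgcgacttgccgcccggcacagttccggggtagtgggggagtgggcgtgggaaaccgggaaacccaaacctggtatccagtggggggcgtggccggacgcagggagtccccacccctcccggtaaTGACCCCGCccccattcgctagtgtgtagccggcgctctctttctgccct
Flt1: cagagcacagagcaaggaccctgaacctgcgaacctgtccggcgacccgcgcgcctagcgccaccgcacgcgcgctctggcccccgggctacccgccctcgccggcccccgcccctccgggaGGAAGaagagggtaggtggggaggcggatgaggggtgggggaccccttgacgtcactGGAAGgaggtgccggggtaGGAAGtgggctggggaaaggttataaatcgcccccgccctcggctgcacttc

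The ligand gene Vegfa (NM_001025250) was at 2.98 and 2.82 in the control females, 2.91 and 2.72 in the control males, 2.88 and 3.19 in the NEKO females and 3.00 and 2.77 in the NEKO males. The groups overlapped, with a NEKO female highest and a control male lowest. The difference was 0.10 (SE 0.11, 95% interval -0.15 to 0.35, limma adjusted p = 0.625). Vegfa had 3 further probes, and the direction turned with the probe: they gave -0.13, -0.17 and -0.17, with intervals that all included 0. The last 2 of these probes were designed to another transcript record of the gene (NM_001025257).

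Flt1 (NM_010228), the receptor that can act as a decoy for VEGF-A, was at 3.47 and 3.29 in the control females and 3.00 and 3.07 in the control males. It was at 3.48 and 3.54 in the NEKO females and 3.48 and 3.34 in the NEKO males. Of the controls, the female without K5-Cre reached the level of the NEKO mice, and the other 3 lay below all of them. The difference was 0.25 (SE 0.09, 95% interval 0.04 to 0.46, a 1.19-fold level), with an unadjusted p of 0.0247 and an adjusted p of 0.214 in limma. An exact two-sided permutation of 4 mice against 4, without regard to sex, gave p = 0.0571, where the smallest possible value is 0.0286. A second probe of Flt1 gave 0.11 (SE 0.08). Without the control female that lacks K5-Cre the difference was 0.31, and over all mice left out in turn it was between 0.20 and 0.31.

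Kdr (NM_010612), whose promoter window held the antioxidant letters shown above, was at 1.81 and 1.67 in the control females, 1.67 and 1.54 in the control males, 1.89 and 1.57 in the NEKO females and 2.10 and 1.70 in the NEKO males. A NEKO male was highest, a control male lowest, and the groups overlapped. The difference was 0.14 (SE 0.13, 95% interval -0.17 to 0.46, limma adjusted p = 0.587).

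Tek (NM_013690) encodes TIE2, the endothelial receptor for angiopoietins. It was at 0.16 and 0.14 in the control females, -0.14 and -0.26 in the control males, 0.17 and 0.38 in the NEKO females and -0.30 and -0.32 in the NEKO males. The NEKO females lay above the control females and the NEKO males below the control males, and the difference over both sexes was 0.01 (SE 0.09, limma adjusted p = 0.965). Within females it was 0.13 and within males -0.11, and the test of that difference gave an adjusted p of 0.693 in limma.

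**Figure D1:**
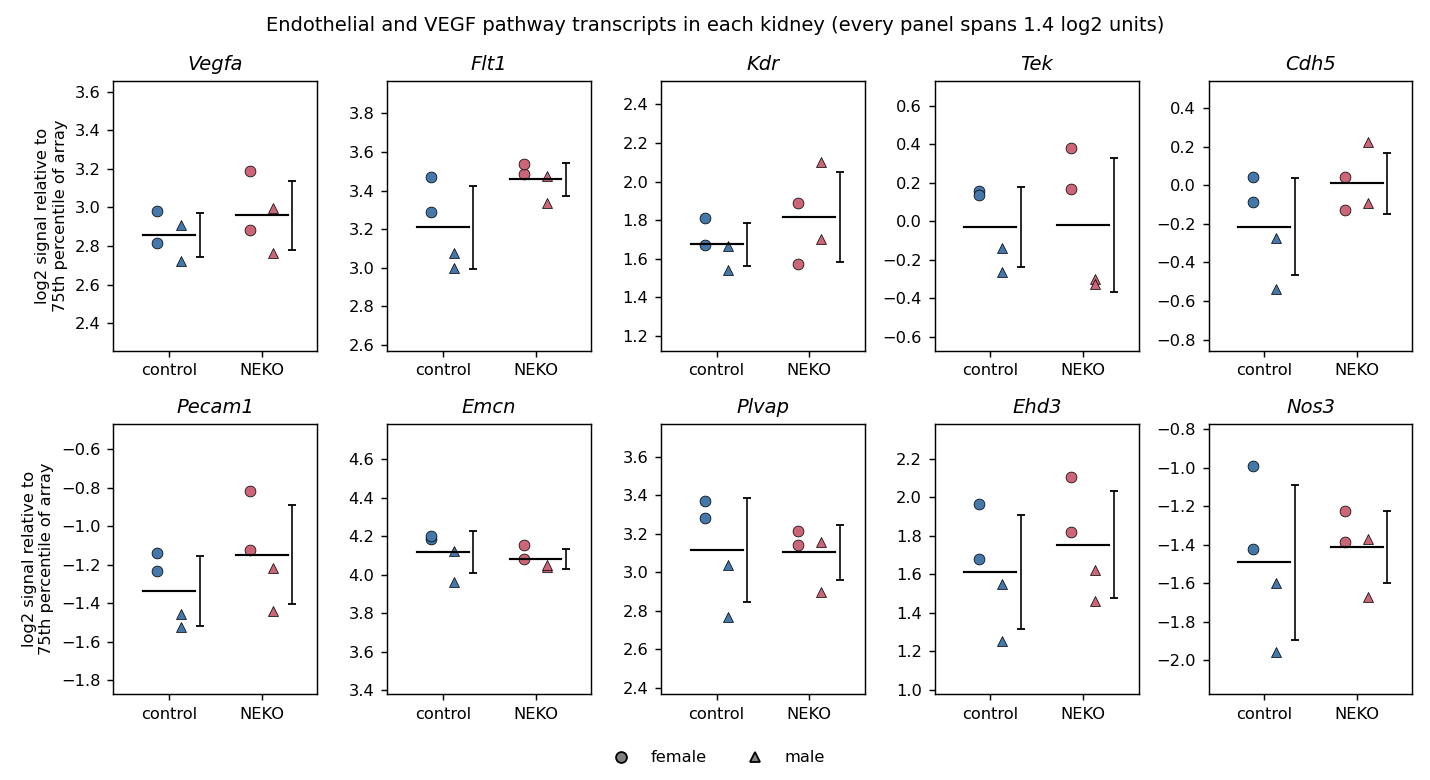
Level of each of the 10 genes in each of the 8 kidneys, as log2 processed signal less the array's 75th percentile (vertical axes, all of the same span), with controls and NEKO mice side by side, females as circles, males as triangles, a horizontal line at each group mean and an error bar of 1 SD either way. The groups overlap in every panel, and for Tek and Ehd3 every male lies below every female.

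The next 2 genes build the junctions between endothelial cells. Cdh5 (NM_009868), VE-cadherin of the adherens junction, was at 0.04 and -0.09 in the control females, -0.54 and -0.27 in the control males, -0.13 and 0.04 in the NEKO females and 0.22 and -0.09 in the NEKO males. The 2 control males were lowest and a NEKO male highest, and the difference was 0.23 (SE 0.14, 95% interval -0.11 to 0.56, limma adjusted p = 0.428). A second, dimmer Cdh5 probe gave a larger difference, 0.57 (SE 0.12, 95% interval 0.28 to 0.85), with every NEKO mouse between -2.68 and -1.86 and every control between -3.24 and -2.69. The groups did not overlap on that probe but nearly touched. Its p in limma was 0.00213 unadjusted and 0.115 adjusted over all probes.

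Pecam1 (NM_001032378), the adhesion molecule CD31, was at -1.23 and -1.14 in the control females, -1.52 and -1.46 in the control males, -1.12 and -0.82 in the NEKO females and -1.44 and -1.22 in the NEKO males. Within each sex both NEKO mice lay above both controls, while over both sexes the groups overlapped. The difference was 0.19 (SE 0.10, limma adjusted p = 0.340).

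Emcn, Plvap and Ehd3 mark surfaces and beds of the kidney capillaries. Emcn (NM_016885), the sialoglycoprotein endomucin of capillaries and veins, was at 4.19 and 4.20 in the control females, 3.96 and 4.12 in the control males, 4.16 and 4.08 in the NEKO females and 4.04 and 4.05 in the NEKO males. It had the narrowest interval of the 10, from -0.20 to 0.13 around a difference of -0.03 (SE 0.07, limma adjusted p = 0.812). Plvap (NM_032398) encodes the protein of the diaphragms that span fenestrae of peritubular capillaries, and was at 3.37 and 3.28 in the control females, 2.77 and 3.04 in the control males, 3.22 and 3.14 in the NEKO females and 2.90 and 3.16 in the NEKO males. The NEKO values lay inside the range of the controls, and the difference was -0.01 (SE 0.11, limma adjusted p = 0.965).

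Ehd3 (NM_020578), an endocytic trafficking protein that in the kidney is largely restricted to glomerular endothelium, was at 1.97 and 1.68 in the control females, 1.25 and 1.55 in the control males, 1.82 and 2.11 in the NEKO females and 1.46 and 1.62 in the NEKO males. The difference was 0.14 (SE 0.12, limma adjusted p = 0.537), and it was 0.14 within females and 0.14 within males. Nos3 (NM_008713), the endothelial nitric oxide synthase that acts below KDR, was at -0.99 and -1.42 in the control females, -1.96 and -1.60 in the control males, -1.38 and -1.22 in the NEKO females and -1.67 and -1.37 in the NEKO males. Its controls held both the highest and the lowest of the 8 mice, and its difference of 0.08 had an interval of -0.28 to 0.44 (limma adjusted p = 0.800).

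**Figure D2:**
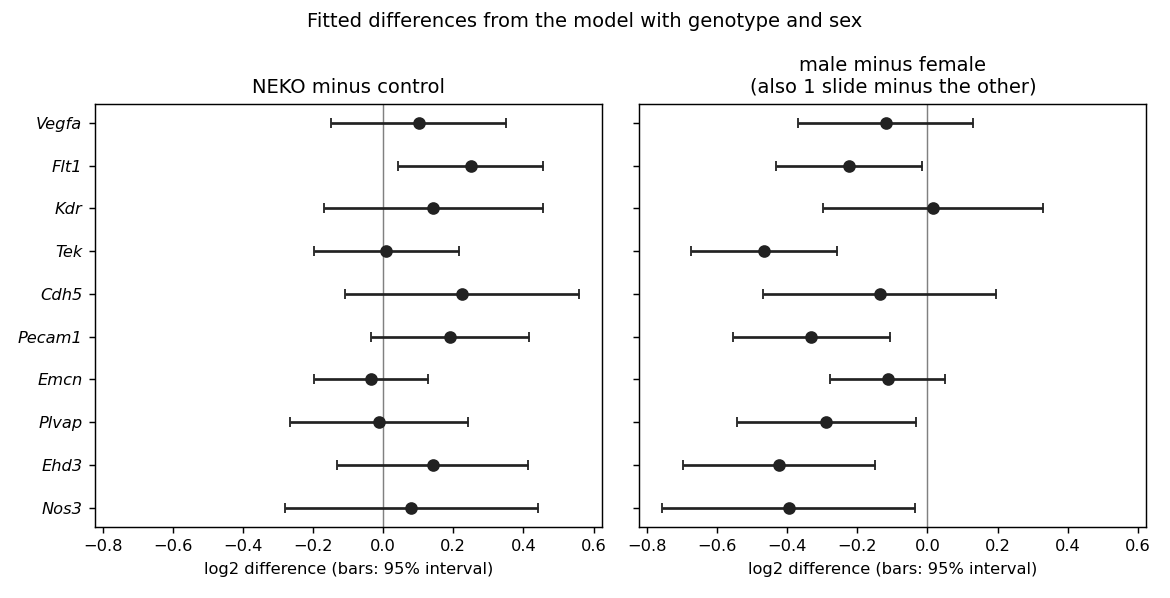
Differences in log2 level for the 10 genes with 95% confidence intervals, NEKO minus control on the left and male minus female on the right, from the model with genotype and sex. Every NEKO interval lies inside a 1.5-fold change either way, and 9 of 10 genes are lower in males.

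The effect of the genotype was also computed within each sex, which is also within each slide. Within females 5 of the 10 genes were higher in NEKO mice, with differences from -0.15 to 0.22 and a median of 0.06. Within males 9 of the 10 were higher, with differences from -0.11 to 0.47 and a median of 0.15. Control replicate 4, 1 of the 2 control males, was the lowest of the 8 mice for 7 of the 10 genes. Without it the median difference over both sexes was 0.10, beside 0.12 with all mice. Cdh5 went from 0.23 to 0.12 and Nos3 from 0.08 to -0.03. Vegfa and Tek moved the other way, from 0.10 to 0.15 and from 0.01 to 0.06. No member had a sex by genotype interaction at an adjusted p under 0.05 in limma, against 0.0153% of all tested, and none had an unadjusted p under 0.05, against 10.5%. The lowest adjusted p of the interaction was 0.526, for Cdh5, at -0.02 in females and 0.47 in males.

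Male kidneys, all on the other slide, had lower values than female kidneys for 9 of the 10 genes, with Kdr the exception at 0.02. The median of male minus female was -0.26, beside 0.01 over all that was tested. None passed an adjusted p under 0.05 in limma, against 0.786% of all tested. An unadjusted p under 0.05 was reached by 6, all lower in males, against 21.2% of all tested in either direction and 10.7% lower in males. They were Tek at -0.47 (adjusted p = 0.0659), Ehd3 at -0.42 (adjusted p = 0.110), Nos3 at -0.40, Pecam1 at -0.33, Plvap at -0.29 and Flt1 at -0.22. For Tek and Ehd3 every male lay below every female, against 5.26% of all tested, and 12.0% where the sexes did not overlap in either direction. In limma Tek passed the threshold with a normexp background correction (-0.42, adjusted p = 0.0494) and with eBayes run with a trend and robust (-0.47, adjusted p = 0.0425). The share of all tested that passed for sex under these settings is not given here. For NEKO against control, 68 passed as higher and 114 as lower with normexp. With the trend and robust these were 40 and 52, against 19 and 25 in the main fit. Control replicate 4, a male, was the lowest of the 8 mice for 7 of the 10 genes. Without it 9 genes were still lower in males, and 3 (Tek, Ehd3 and Pecam1) had an unadjusted p under 0.05 in limma.

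**Figure D3:**
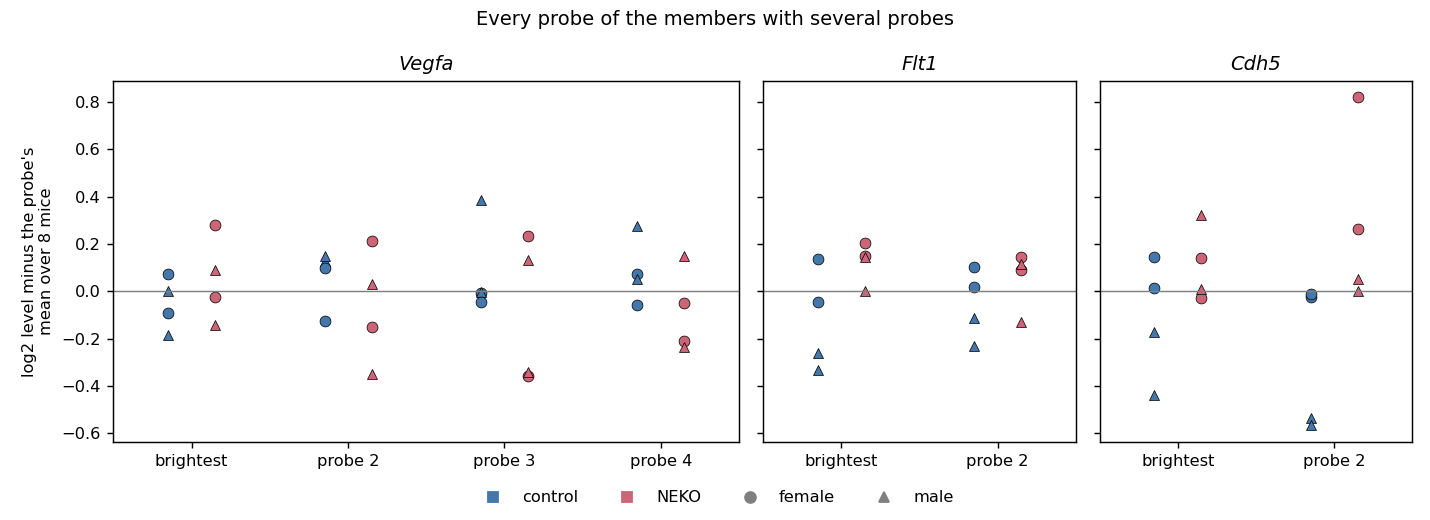
Log2 level of each probe in each kidney minus the mean of that probe over the 8 mice, for the 3 members with several probes, with controls and NEKO mice side by side, females as circles and males as triangles. NEKO minus control lies on both sides of 0 over the 4 Vegfa probes, from -0.17 to 0.10, and the 2 Cdh5 probes give 0.23 and 0.57.

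The rest of the pathway was read from lists, in which the members above also count. Over all that was tested, 18.0% had an unadjusted p under 0.05 in limma and 9.28% had groups that did not overlap, in either direction. These shares stand beside the counts of every list below. None of the 5 VEGF ligands or 5 receptors and co-receptors passed the adjusted threshold in limma, and 2 ligands and 1 receptor had an unadjusted p under 0.05. Vegfd, whose product in the mouse binds VEGF receptor 3 and is known for lymphatic growth, was at 0.52 and 0.22 in the control females, -0.62 and -0.31 in the control males, 0.73 and 0.90 in the NEKO females and 1.34 and 1.25 in the NEKO males. Every NEKO mouse lay above every control, the difference was 1.10 (SE 0.27, limma adjusted p = 0.131), and it was 0.44 within females and 1.76 within males (interaction adjusted p = 0.130). Vegfb, a ligand of FLT1, gave -0.35 (limma adjusted p = 0.173) and -0.22 on its other probe. All 5 receptors and co-receptors were positive, from 0.14 for Kdr to 0.30 for Flt4, the lymphatic VEGF receptor 3, with the neuropilins Nrp1 and Nrp2 at 0.20 and 0.21.

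The 26 genes of signalling below VEGF receptor 2 had no gene past the adjusted or the unadjusted threshold in limma, and a median of 0.05. Among 6 genes of the angiopoietin and Tie system, with a median of -0.02, 0 passed the adjusted threshold and 1 the unadjusted one in limma. This was Angpt2, whose product can block TIE2, at -0.51 (adjusted p = 0.266), with -0.05 within females and -0.97 within males. The 8 genes of nitric oxide signalling had a median of 0.04, with no gene past either threshold in limma. Among 8 endothelial Notch genes, Notch1 gave 0.70 (limma adjusted p = 0.158), and its groups did not overlap, and the median was 0.10. No Notch gene passed the adjusted threshold and no other gene of that list the unadjusted one. The 10 tested endothelial transcription factors had a median of 0.19, with 0 past the adjusted threshold and 2 past the unadjusted one in limma. Of these, Nr2f2, which specifies veins, gave 0.34 (SE 0.07, limma adjusted p = 0.100) with groups that did not overlap. Klf2, which responds to flow, gave -0.89 on its brighter probe (limma adjusted p = 0.210) and 0.12 on the other. The list medians within females and within males were 0.02 and 0.09 for signalling below VEGF receptor 2. They were -0.17 and 0.17 for angiopoietin and Tie, and -0.19 and 0.20 for nitric oxide signalling. The Notch genes gave 0.09 and 0.24, and the transcription factors 0.04 and 0.39.

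Markers of the endothelium at large were read next. Of 25 pan-endothelial genes tested 17 were positive, the median was 0.08, and none passed the adjusted threshold in limma, with 3 at an unadjusted p under 0.05. The median was -0.13 within females and 0.30 within males, so its direction differed between the sexes. The apelin receptor gene Aplnr gave -0.86 (SE 0.12, adjusted p = 0.0566), from -1.63 to -1.35 in controls and from -2.59 to -2.03 in NEKO mice. Procr, the endothelial protein C receptor, gave 1.16 (adjusted p = 0.160), at 0.36 within females and 1.96 within males, and Clec14a gave 0.48 (adjusted p = 0.207). In male minus female the 25 genes had a median of -0.17, with 20 lower in males.

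Beds of the vasculature gave the same count of 0 genes past the adjusted threshold in limma. The 5 tested markers of glomerular endothelium had a median of 0.00, with 1 at an unadjusted p under 0.05, Tbx3 at 0.57 (adjusted p = 0.224), and a median of -0.42 in male minus female. The 6 tested markers of vasa recta and arterial endothelium had a median of 0.31, with 1 at an unadjusted p under 0.05. This was Efnb2, the arterial ephrin, at 0.65 on its brighter probe (adjusted p = 0.114) and -0.06 on the other. The 4 tested lymphatic markers had a median of 0.30, and the defining lymphatic gene Prox1 was well above background on 0 arrays. The selectins Sele and Selp of activated endothelium were likewise well above background on 0 arrays, and the 6 tested activation genes had a median of 0.17. Neither the lymphatic nor the activation genes had one at an unadjusted p under 0.05 in limma. Within females and within males the medians were 0.03 and -0.03 for glomerular endothelium. They were 0.14 and 0.58 for vasa recta and arterial endothelium. The lymphatic genes gave -0.11 and 0.27, and the activation genes -0.18 and 0.43.

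**Figure D4:**
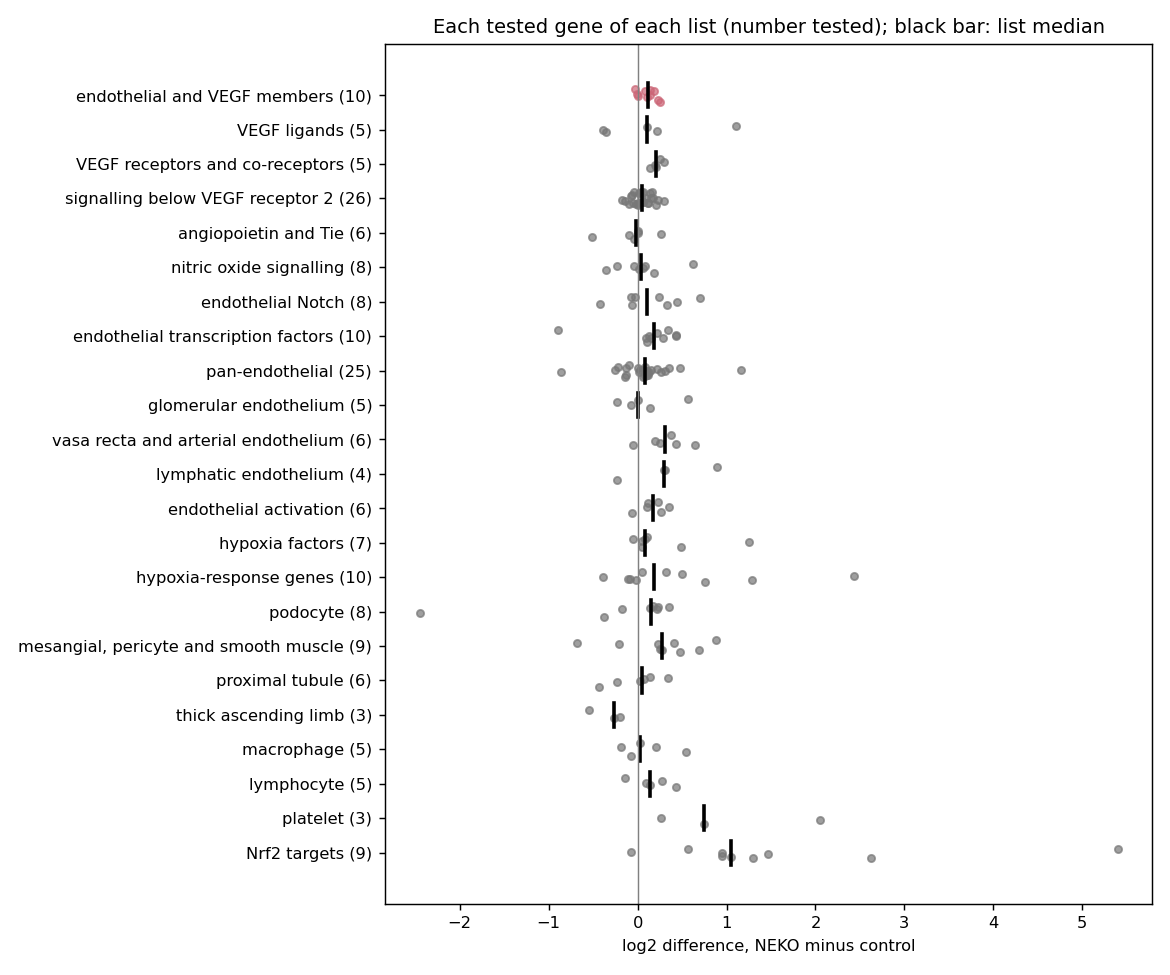
NEKO minus control in log2 level for the tested genes of each list, 1 point per gene, with a black bar at the median of each list and the number tested in brackets. The medians of the endothelial and VEGF lists run from -0.02 for the angiopoietin and Tie genes to 0.31 for the vasa recta and arterial genes, and the Nrf2 targets have a median of 1.05.

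VEGF-A is a textbook target of the hypoxia-inducible factors, so that axis was read beside it. None of 7 tested hypoxia factors or 10 hypoxia-response genes passed the adjusted threshold in limma, while 2 and 4 had an unadjusted p under 0.05, all higher in NEKO mice, against 18.0% of all tested in either direction. The medians were 0.08 and 0.18, with 6 of the 7 factors and 6 of the 10 response genes positive. Egln3, a prolyl hydroxylase that is itself induced by hypoxia, gave 1.25 (SE 0.19, adjusted p = 0.0610), from -1.01 to -0.44 in controls and from 0.13 to 1.08 in NEKO mice. Epas1, which encodes HIF-2α and is abundant in endothelium, gave 0.48 (adjusted p = 0.115) and 0.61 on its other probe. The mitophagy gene Bnip3 gave 0.50 (adjusted p = 0.0862), and for Egln3, Epas1 and Bnip3 the 2 groups did not overlap, against 3.89% of all tested that were higher in NEKO mice without overlap. The vasodilator peptide gene Adm gave 0.76 (limma adjusted p = 0.211), at 0.19 within females and 1.34 within males. Ankrd37 gave 1.29 (limma adjusted p = 0.259). The erythropoietin gene Epo was well above background on 3 NEKO arrays and 1 control array, so its fitted difference of 2.44 (adjusted p = 0.250) is against control arrays of which 3 did not reach that mark. Epo was at -1.04 and -2.58 in the NEKO males and between -6.48 and -4.27 in the other 6 mice. The glucose transporter Slc2a1 gave 0.31 and the glycolytic genes Pgk1 and Ldha -0.08 and -0.11.

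Markers of the other cell types in a whole kidney were read in the same way, and their part in the endothelial values was not tested. The 8 podocyte genes, from cells that release VEGF-A, had a median of 0.15, with Nphs1 at 0.35 and Synpo at -2.45 on its brighter probe (limma adjusted p = 0.180) and 0.31 on the other. The median of the podocyte genes in male minus female was -0.37, with 7 of 8 lower in males. The level of that list in a mouse (the median over its genes of the log2 level minus the mean of the gene) ran from -0.29 to 0.52 in controls and from -0.40 to 0.19 in NEKO mice. The 9 mesangial, pericyte and smooth muscle genes had a median of 0.27, at 0.08 within females and 0.77 within males, and their level, taken in the same way, ran from -0.57 to 0.09 in controls and from -0.04 to 0.59 in NEKO mice. Of these, Rgs5 gave 0.89, Itga8 0.69 and Pdgfrb 0.48, with adjusted p of 0.235, 0.235 and 0.239 in limma.

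Proximal tubule genes had a median of 0.05 over 6 genes, with Slc34a1 at 0.08, Lrp2 at 0.02 (0.11, 0.14 and 0.43 on its other probes), Slc5a2 at -0.43 (limma adjusted p = 0.120) and Slc22a6 at 0.34 (limma adjusted p = 0.158) and 0.55 on its other probe. Slc22a6, an organic anion transporter, was 1.03 higher in males (limma adjusted p = 0.0171). The 3 thick ascending limb genes had a median of -0.27, led by Kcnj1 at -0.55, and their level ran from 0.13 to 0.30 in controls and from -0.67 to 0.32 in NEKO mice. The medians of 5 macrophage and 5 lymphocyte genes were 0.03 and 0.13, with Adgre1 at 0.21 and Cd3e at 0.10. Csf1r gave -0.19 on its brightest probe and -0.80 and -0.41 on the others, and Ptprc gave 0.13 and 0.26 on the other. The 3 platelet genes had a median of 0.75, with Ppbp at 2.05 (limma adjusted p = 0.110) and Pf4 at 0.75 (limma adjusted p = 0.272), both highest in the NEKO males. Ppbp was well above background on 3 NEKO and 2 control arrays. No gene of these 7 cell type lists passed the adjusted threshold for NEKO against control in limma. An unadjusted p under 0.05 in limma was reached by 18.0% of all tested in either direction. In these lists it was reached by 1 podocyte gene (lower in NEKO mice) and 3 mesangial, pericyte and smooth muscle genes (higher). The same held for 2 proximal tubule genes (1 higher, 1 lower), 1 thick ascending limb gene (lower) and 2 platelet genes (higher). It was reached by 0 macrophage and 0 lymphocyte genes.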

How the data were processed

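Kidney RNA of 4 NEKO and 4 control mice was measured on 1-colour Agilent arrays, 1 per mouse. The authors deposited the output of Agilent Feature Extraction 10.7.3.1, with a background-subtracted intensity per spot that had not been normalized between arrays. The authors also deposited a matrix of log2 values. It was compared with the scaled values described below, after each probe's median over the arrays was subtracted from them. Of the deposited values, 99.9% lay within 0.01 of these centred values, which differ from the uncentred levels printed above. The methods name no normalization or test for the arrays, beyond an unpaired comparison with unequal variances for the whole paper.

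Outlier spots (73 to 172 of 43379 per array) were left out and spots of 1 probe averaged. The 75th percentile of an array's non-control probes was subtracted from its log2 processed signals. Detection well above background on 4 or more arrays and a value on 6 or more were required of a probe, and the brightest such probe stood for its gene. Of 41174 probes, 26690 were named through RefSeq transcripts (GRCm38.p6). The annotation of the array is on mm9, so only names were taken, and the promoter windows come from RefSeq alone.

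Groups were compared in limma 3.58.1 (R 4.3.3) with sex as a covariate, a second model with an interaction, and Benjamini-Hochberg adjustment at 0.05. The code was tested on simulated data. Single genes were also permuted exactly, without regard to sex. Intervals cover 95%, and their width is limited by the number of mice; the controls were littermates per the methods, and which mice shared a litter is not given. The alternatives were other background corrections (normexp with an offset of 50), scalings, probe filters and probes, models and tests, the deposited matrix and leaving out each mouse. Averaging over the sexes, single other probes and the alternatives of the sex term were chosen after seeing the data, and so was naming Ankrd37, Slc2a1, Pgk1, Ldha, Flt4, Nrp1 and Nrp2.

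The members and lists were chosen with earlier results of these data known. Genes named beside the members are those called in each list, otherwise up to 3 with the lowest p under 0.05, and the first genes of each cell type list, apart from 1 that is not reported here. Of the listed genes, Tal1, Sema3g, Vhl and Cd68 had no named probe, and Gata5, Bmx, Prox1, Sele, Selp, Cd79a, Gp9 and Slc7a11 had no kept probe.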

Additional observations from a re-analysis of the deposited data

Results flagged for a closer look

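Of 112 groups of 4 mice looked at, 20 of them groups of the 10 members, 4 held a mouse far from the other 3, and chance gives about 1 in 20 groups. None was a group of a member. The value given is the gap to the nearest mouse divided by the range of the group. Nqo1 in controls reached 0.910, with control replicate 4 at 1.24 and the others between 2.35 and 2.46. Bnip3 in NEKO mice reached 0.877, with NEKO replicate 2 at 4.14 and the others between 4.30 and 4.33. Synpo in NEKO mice reached 0.875, with NEKO replicate 5 at 3.09 and the others between 1.58 and 1.77. Itga8 in controls reached 0.849, with control replicate 8 at 1.18 and the others between 0.55 and 0.65.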

How the results depend on the processing

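No member passed an adjusted p under 0.05 for NEKO against control, or for the interaction, under any alternative run. Of 215 member values under alternatives, 200 kept their direction and 15 turned. Vegfa became -0.090 with the mean of its probes, and -0.13, -0.17 and -0.17 on its single other probes. Tek became -0.0013 with normexp. Leaving out each mouse in turn gave Tek -0.057 to 0.058, Plvap -0.093 to 0.033 and Nos3 -0.027 to 0.20, and Nos3 turned without NEKO replicate 6 or control replicate 4. Without NEKO replicate 5 Kdr was 0.031 and Cdh5 0.11, without NEKO replicate 3 Vegfa was 0.033, Pecam1 0.12 and Ehd3 0.085, and without control replicate 4 Cdh5 was 0.12, Ehd3 0.082 and Emcn -0.074. Over the mice left out in turn, the ranges were 0.031 to 0.24 for Kdr, 0.11 to 0.31 for Cdh5 and 0.033 to 0.16 for Vegfa. They were 0.12 to 0.24 for Pecam1, 0.082 to 0.20 for Ehd3, -0.074 to -0.011 for Emcn and 0.20 to 0.31 for Flt1. These genes kept their direction whichever mouse was left out. On single other probes Cdh5 reached 0.57 and Flt1 0.11. In male minus female 1 member, Tek, passed the threshold with normexp and 1, also Tek, with eBayes run with a trend and robust, settings chosen for this comparison after seeing the data. The share of all tested that passed for sex under these settings is not given. Of 414 list medians 411 moved by less than the spread between mice. With the mean of the kept probes the VEGF ligands had a median of -0.090. Leaving out mice gave medians of 0.92 to 1.34 for the Nrf2 targets, highest without control replicate 8, and 0.026 to 0.11 for the hypoxia factors, lowest without NEKO replicate 3. The causes were not tested.

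Over all that was tested, 19 passed as higher and 25 as lower in NEKO mice. With normexp these became 68 and 114, with detection on all arrays 8 and 12, with array weights 33 and 58, and with the robust trend of eBayes 40 and 52. They were 14 and 16 without the sex term, 245 and 268 averaged over the sexes, and 0 and 1 with the methods' test adjusted (944 and 1268 unadjusted). Without NEKO replicates 5 or 6 they were 9 and 12, and 9 and 9. Without control replicates 4, 7 or 8 they were 9 and 10, 9 and 8, and 12 and 11. No paired analysis was possible because the replicate numbers run over both groups and none is shared.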
